A study of Homo sapiens with 6 samples.

Results

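The genes described here are the sensors of the IRE1 and ATF6 arms of the unfolded protein response, the transcription factor that IRE1 activates, and the proteases that activate ATF6. They are ERN1, XBP1, ATF6, ATF6B, MBTPS1 and MBTPS2, 6 of the 16330 genes in the deposited tables. They were chosen by name, with earlier results of these data known. Their transcripts take up 23 of the 79031 transcripts counted. The libraries came from HN12, an established human line of head and neck squamous cell carcinoma, cultured in DMEM with serum and antibiotics. The Control group (3 libraries) received the solvent DMSO and the CPI-613 group (3 libraries) received CPI-613, and RNA was taken after 24 h in both. CPI-613 is a lipoic acid analogue aimed at mitochondrial 2-oxoacid dehydrogenase complexes. Neither its dose nor the origin of the replicates (1 culture or several) is given in the sources used here. The p-values below therefore describe library-to-library spread that could be technical. All 6 libraries are of 1 line, and in bulk RNA fewer cells of a kind and less RNA per cell cannot be told apart.

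The endoplasmic reticulum (ER) folds secreted and membrane proteins, and its unfolded protein response is read out by IRE1, ATF6 and PERK. IRE1 (gene ERN1) is a membrane kinase and endoribonuclease that cuts a short intron out of XBP1 mRNA in the cytoplasm, so that the ligated mRNA encodes the active transcription factor XBP1s. ATF6 and its relative ATF6B are membrane-bound transcription factors that leave the ER for the Golgi, where the proteases S1P (MBTPS1) and S2P (MBTPS2) release the part that enters the nucleus. Activation of IRE1, ATF6 and the proteases takes place in the protein, which RNA levels do not measure.

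Library totals lay between 11531942 and 15486513 estimated counts. Marker genes of squamous keratinocytes all had rows and summed to 7240 to 10793 CPM (counts scaled to the size of the library) in Control and 4382 to 9026 CPM under CPI-613. Of these 8 genes 0 were called by edgeR (1 at an unadjusted p under 0.05, 0 by DESeq2) and 3 had an estimate above 0. Over all 12671 tested genes 1823 had an unadjusted p under 0.05 by edgeR. KRT17 measured 2387 ± 752 and 2555 ± 1365 CPM (mean ± SD, n = 3). KRT5 measured 2231 ± 295 and 962 ± 552 CPM with no overlap between groups (log2 -1.21; edgeR, Benjamini-Hochberg adjusted p = 0.226). With a correction for GC content and length described below, KRT5 was called lower (log2 -1.46, adjusted p = 0.0139), a call that ended without Control replicate 1, Control replicate 3 or CPI-613 replicate 2 (adjusted p = 0.0579, 0.0637 and 0.0747). Leukocyte markers summed to 20.6 to 35.7 CPM in Control and 2.60 to 5.10 CPM under CPI-613, mostly CD14, while CD3E and NKG7 had no row. The 3 fibroblast markers with a row summed to 36.6 to 44.8 and 32.3 to 34.5 CPM, with no row for COL1A2, LUM and DCN, and 4 endothelial markers to at most 3.04 CPM. The part of any such cells in the results below was not tested.

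XBP1 mRNA is where the sequence carries the reading. XBP1 (gene ID 7494) lies on the minus strand of chromosome 22 at 28794560 to 28800569 (RefSeq, GRCh38 patch 14). The intron that IRE1 removes is 26 bases of exon 4 of 5, at chr22:28796124-28796149, and covers bases 497 to 522 of the unspliced coding sequence. Since 26 leaves a remainder of 2 on division by 3, the reading frame shifts there. The unspliced frame runs for 261 codons and the spliced one for 376, of which the first 165 are shared. The window chr22:28796084-28796189 is shown before and after removal of the intron, from GENCODE 29 transcripts on GRCh38, with the intron in capitals.
XBP1 unspliced: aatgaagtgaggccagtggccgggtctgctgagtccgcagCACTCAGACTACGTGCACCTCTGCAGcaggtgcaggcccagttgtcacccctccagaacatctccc
XBP1 spliced: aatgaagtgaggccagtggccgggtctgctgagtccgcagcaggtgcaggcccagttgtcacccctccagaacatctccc
Only reads across this stretch or its junction tell the 2 coding sequences apart, and how the remaining reads were split between isoforms is not given in the sources used here.

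Of the 6 genes, ERN1 and XBP1 rose with CPI-613, each to more than 3 times its Control level, and ATF6, ATF6B, MBTPS1 and MBTPS2 did not pass the test in either direction. ERN1 (gene ID 2081, chromosome 17 at 64039142 to 64130144) measured 25.7, 24.8 and 23.5 CPM in Control replicates 1 to 3 and 84.4, 88.1 and 75.2 CPM in CPI-613 replicates 1 to 3. The groups lay far apart, and libraries of the same group stayed close together. The mean went from 24.7 ± 1.10 to 82.6 ± 6.62 CPM (SD, n = 3), 3.35-fold (95% interval 2.48 to 4.52). The log2 fold change of 1.74 (SE 0.18) passed edgeR's quasi-likelihood test with Benjamini-Hochberg adjustment over 12671 genes (adjusted p = 0.0072, range over all settings tried 2.61e-15 to 0.0808).

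XBP1 measured 137, 161 and 128 CPM in Control and 383, 504 and 529 CPM under CPI-613. CPI-613 replicate 1 was the lowest of its group and still more than double the highest Control library. The mean went from 142 ± 16.8 to 472 ± 78.2 CPM (SD, n = 3), 3.32-fold (95% interval 2.38 to 4.62). Its log2 fold change of 1.73 (SE 0.20) passed the same edgeR test (adjusted p = 0.00943, range over all settings tried 1.64e-12 to 0.0906). These 2 calls among 6 genes stand against 1.94% of all tested genes called higher, 1.24% called lower and 3.18% in either direction at an adjusted p of 0.05.

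**Figure D1:**
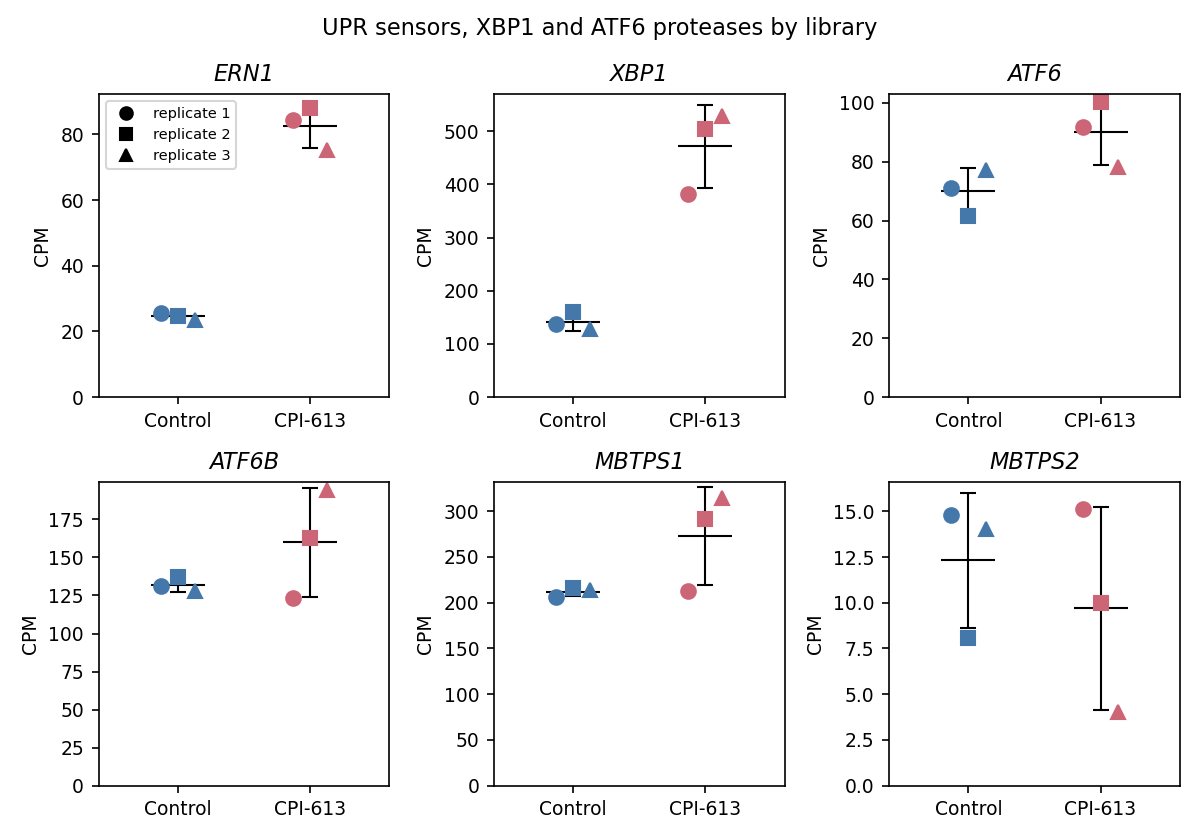
Level of each gene by library, in CPM on linear axes from 0, for 3 Control and 3 CPI-613 libraries. Symbols are libraries, horizontal lines group means and error bars the SD; ERN1 and XBP1 are apart by group, and MBTPS2 spreads from 4.03 to 15.1 CPM.

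Both calls depended on which libraries entered. Without Control replicate 1, Control replicate 3 or CPI-613 replicate 2, the adjusted p of ERN1 was 0.0808, 0.0731 and 0.0788 by edgeR with Benjamini-Hochberg adjustment, and that of XBP1 was 0.0906, 0.0905 and 0.0814. In these 3 fits edgeR called 0, 0 and 7 genes of all tested (1064, 1118 and 1169 at an unadjusted p under 0.05), and DESeq2 called 404, 404 and 412. The fold changes barely moved, with log2 values of 1.70 to 1.81 for ERN1 and 1.64 to 1.87 for XBP1 over the 6 fits that leave out 1 library. With DESeq2 the adjusted p stayed at or under 1.63e-05 for ERN1 and 1.05e-04 for XBP1 whichever library was left out.

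ATF6 (gene ID 22926, chromosome 1 at 161766320 to 161964070) measured 71.2, 61.6 and 77.4 CPM in Control and 91.7, 100.3 and 78.1 CPM under CPI-613. Every CPI-613 library lay above every Control library, by a margin of less than 1 CPM between the nearest. The means were 70.0 ± 7.95 and 90.0 ± 11.2 CPM (SD, n = 3), and the log2 difference of 0.36 (SE 0.19, 95% interval -0.08 to 0.80) did not pass (edgeR, Benjamini-Hochberg adjusted p = 0.477). ERN1, XBP1 and ATF6 are thus 3 of 6 genes with all CPI-613 libraries on the higher side, where 11.8% of all tested genes were so placed and 9.17% the other way.

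ATF6B (gene ID 1388, chromosome 6 at 32115264 to 32128246), the weaker activator of the pair, measured 131, 137 and 128 CPM in Control and 123, 163 and 195 CPM under CPI-613. The Control libraries fell inside the range of the CPI-613 libraries. The means were 132 ± 4.75 and 160 ± 35.8 CPM (SD, n = 3), a log2 difference of 0.28 (SE 0.21, 95% interval -0.21 to 0.76; edgeR, Benjamini-Hochberg adjusted p = 0.671).

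MBTPS1 (gene ID 8720, chromosome 16 at 84053763 to 84116942) encodes S1P, the protease that cuts ATF6 first, on the luminal side. It measured 206, 216 and 213 CPM in Control and 212, 291 and 314 CPM under CPI-613, so that CPI-613 replicate 1 sat among the Control libraries and the others above them. The log2 difference was 0.36 (SE 0.20, 95% interval -0.10 to 0.82; edgeR, Benjamini-Hochberg adjusted p = 0.502). MBTPS2 (gene ID 51360, chromosome X at 21839617 to 21885423) encodes S2P, the protease that makes the following cut within the membrane. It was scarce, with 14.8, 8.08 and 14.1 CPM in Control and 15.1, 9.99 and 4.03 CPM under CPI-613, which is 52 counts in the lowest library and 212 in the highest. Its groups overlapped widely, and the log2 difference of -0.34 (SE 0.49, 95% interval -1.50 to 0.82) leaves a large change in either direction within the interval (edgeR, Benjamini-Hochberg adjusted p = 0.822). YY2 lies within the MBTPS2 locus, averaged 11.7 counts per library, and could share reads with it, since whether strand was used in counting is not given in the sources used here.

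**Figure D2:**
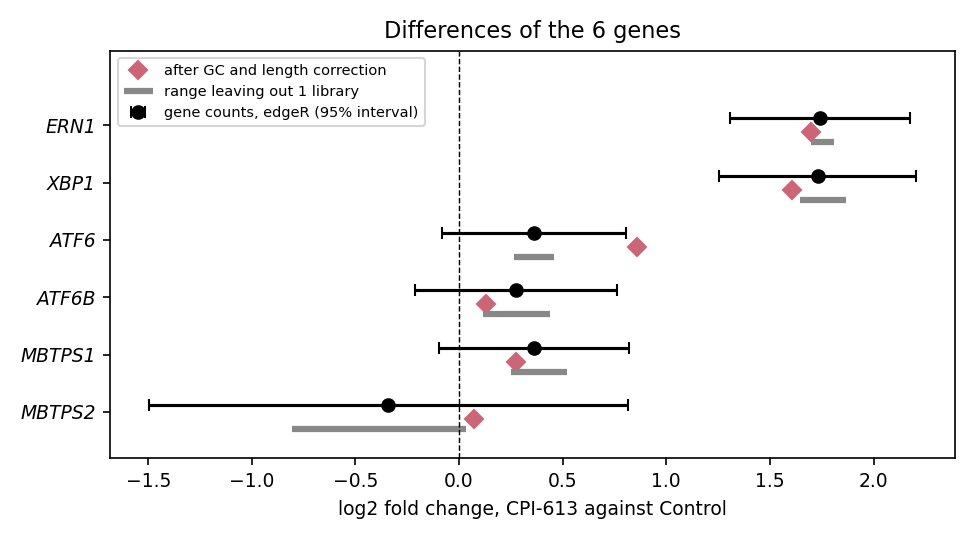
Log2 fold change of each gene, CPI-613 against Control. Black points with bars are edgeR estimates with 95% intervals, diamonds the estimates after GC and length correction, and grey lines the range over fits that leave out 1 library. The intervals of ERN1 and XBP1 lie above 1, those of the other 4 genes include 0.

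Replicates differed from each other along transcript GC content, and the members span a wide range of GC content. The part of this in the spread of each member was not tested. Across 12605 genes the deviation of a library from its group mean had a Spearman correlation with GC content of -0.44, 0.60 and -0.58 in Control replicates 1 to 3, and of -0.78, -0.19 and 0.79 in CPI-613 replicates 1 to 3. These values are across genes, which are not independent replicates. MBTPS2, with 35.9% GC at the 2.20th percentile of tested genes, stood 0.82, 0.23 and -1.05 from its group mean in CPI-613 replicates 1 to 3 on the log2 scale. ATF6 follows with 41.3% GC, XBP1, ERN1 and MBTPS1 are near the median of 48.9%, and ATF6B is at 57.7%.

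With a GC and length correction, which takes out the trend of a library on both, 6.65% of all genes were called higher and 5.02% lower, and again ERN1 and XBP1 were the members called. ERN1 had a log2 fold change of 1.70 (SE 0.12; edgeR, Benjamini-Hochberg adjusted p = 0.000375) and XBP1 of 1.61 (SE 0.11; adjusted p = 0.000301). Under this correction both calls held whichever library was left out, with adjusted p of at most 0.0065 and 0.0062. The estimate for ATF6 went to 0.86 (SE 0.31; edgeR, Benjamini-Hochberg adjusted p = 0.128), and it was called, at 1.15 with an adjusted p of 0.00704, when CPI-613 replicate 1 was left out. MBTPS1 was called in that same fit alone, at 0.39 (edgeR, Benjamini-Hochberg adjusted p = 0.0437). MBTPS2 moved from -0.34 to 0.07 (SE 0.19; edgeR, Benjamini-Hochberg adjusted p = 0.840).

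**Figure D3:**
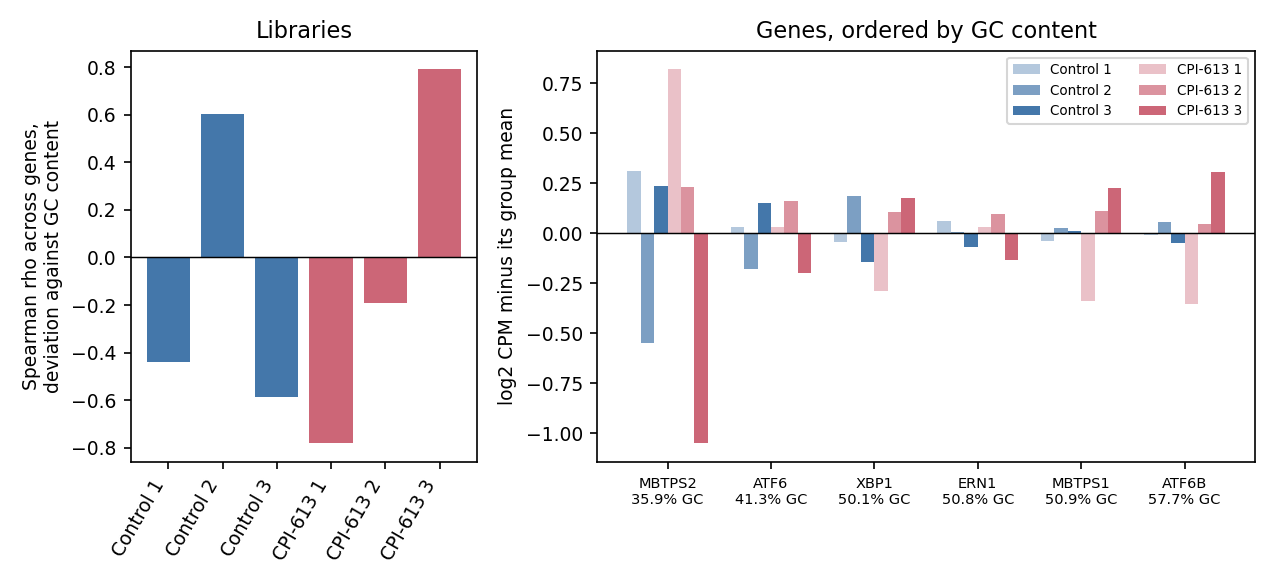
Left, Spearman rho across 12605 genes between a library's deviation from its group mean and GC content; right, the deviation of each member in each library, in log2 CPM, with members ordered by GC content. MBTPS2, the member lowest in GC, has the widest bars, from -1.05 to 0.82.

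Values per transcript length let the members be ranked against each other. In the deposited FPKM (counts scaled to transcript length and library total), Control libraries held 96.4 ± 8.60 for XBP1, 59.3 ± 1.61 for ATF6B, 54.7 ± 0.930 for MBTPS1, 19.9 ± 2.26 for ATF6, 3.25 ± 0.159 for ERN1 and 3.15 ± 1.04 for MBTPS2 (SD, n = 3). The libraries of neighbouring genes in this order did not overlap except for ERN1 and MBTPS2. With CPI-613 the order was XBP1 at 277 ± 22.0, ATF6B at 61.7 ± 7.25, MBTPS1 at 60.6 ± 6.42, ATF6 at 23.4 ± 4.72, ERN1 at 9.77 ± 1.83 and MBTPS2 at 2.25 ± 1.47 FPKM. Here ATF6B and MBTPS1 overlapped, and ERN1 stood clear of MBTPS2. ERN2, the second IRE1 gene, which is typical of mucosal epithelia, had at most 2 counts in any library and 0 in Control replicates 2 and 3, so that the counts of this sensor were nearly all from ERN1.

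The FPKM gave the same 2 calls as the counts. On log2(FPKM + 1), a scale that understates changes of low genes, limma gave 1.51 for XBP1 (SE 0.13, Benjamini-Hochberg adjusted p = 0.00407) and 1.33 for ERN1 (SE 0.19, adjusted p = 0.0181), where 1.97% of 12100 genes were called higher and 4.07% in either direction. Leaving out 1 library ended the ERN1 call in 4 of 6 fits (adjusted p up to 0.137) and the XBP1 call in the fit without Control replicate 1 (adjusted p = 0.0508). ATF6, ATF6B, MBTPS1 and MBTPS2 had limma estimates of 0.21, 0.05, 0.14 and -0.43 with adjusted p of at least 0.601. In FPKM the groups of ATF6 overlapped, since CPI-613 replicate 3 at 18.0 fell below Control replicate 1 at 19.8 and Control replicate 3 at 22.2.

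Ratios between members within a library do not depend on how libraries are scaled. They are not corrected for GC content, which is 50.8% for ERN1, 50.1% for XBP1 and 41.3% for ATF6. With the GC and length correction the log2 fold changes were 1.70 for ERN1, 1.61 for XBP1 and 0.86 for ATF6. The part of GC content in the ratios to ATF6 was not tested. The log2 ratio of XBP1 to ERN1 counts was 2.42, 2.70 and 2.45 in Control and 2.18, 2.52 and 2.81 with CPI-613, so the groups overlapped, and the means differed by -0.02. The log2 ratio of ERN1 to ATF6 went from -1.50 ± 0.20 to -0.12 ± 0.07 (SD, n = 3) and that of XBP1 to ATF6 from 1.02 ± 0.33 to 2.38 ± 0.35, with no overlap between groups in either. A 2-sided exact permutation test gave p = 0.1 for each of these differences, the smallest value that 3 against 3 libraries allow, and 0.15 after Benjamini-Hochberg adjustment over the 3 ratios. For XBP1 to ERN1 the exact p was 1.

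Of the XBP1 isoforms, the unspliced mRNA (NM_005080) held most counts in every library, with 1524, 1825 and 1398 in Control and 4254, 5147 and 5065 with CPI-613. The spliced mRNA (NM_001079539) held 219, 246 and 282 counts in Control and 1089, 1394 and 1733 with CPI-613. Both isoforms were higher in every CPI-613 library than in any Control library. In CPM the unspliced isoform measured 126 ± 15.8 and 360 ± 47.6, a log2 difference of 1.51 (SE 0.18), and the spliced isoform 19.9 ± 2.34 and 105 ± 26.1, a difference of 2.40 (SE 0.25). Neither passed when tested among 40150 transcripts, where edgeR gave Benjamini-Hochberg adjusted p of 0.083 and 0.0648 and called 0.0349% of transcripts. The spliced isoform did pass when libraries were scaled by their totals only (edgeR, Benjamini-Hochberg adjusted p = 0.037).

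The spliced isoform made up 12.5%, 11.9% and 16.8% of the XBP1 counts in Control replicates 1 to 3 and 20.3%, 21.3% and 25.4% in CPI-613 replicates 1 to 3. Control replicate 3 was the highest of its group and remained below all CPI-613 libraries. Its Wilson 95% interval of 15.1% to 18.6% and that of CPI-613 replicate 1, 19.2% to 21.4%, did not meet, although these intervals cover counting error only and not the splitting of shared reads. The mean share was 13.7% ± 2.65 in Control and 22.3% ± 2.69 with CPI-613 (SD, n = 3), 8.59 percentage points apart, with a 2-sided exact permutation p of 0.1, the smallest that 3 against 3 libraries allow. A test of usage against the other isoforms of the gene (diffSpliceDGE of edgeR, over 36312 transcripts) gave the spliced isoform a relative log2 change of 0.73, an unadjusted p of 0.0892 and a Benjamini-Hochberg adjusted p of 1, with 0.0193% of transcripts called. The difference in share was thus larger than the spread between replicates but was not called across transcripts. The part of all transcripts with groups apart in share was not counted.

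**Figure D4:**
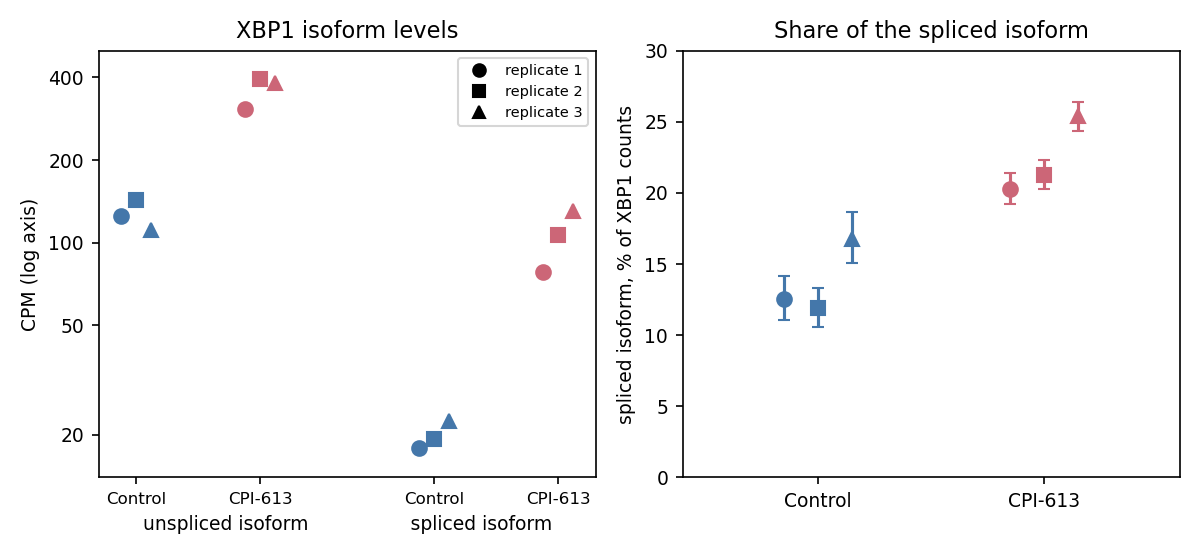
Left, level of the unspliced and spliced XBP1 isoforms by library in CPM on a log axis; right, spliced isoform as a percentage of all XBP1 counts by library, with Wilson 95% intervals for counting error. The 3 CPI-613 libraries lie at 20.3% to 25.4%, all above the Control libraries at 11.9% to 16.8%.

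Of the 23 transcripts of all 6 genes 11 held at least 5% of their gene in either group, 13 were tested, and 0 were called by edgeR. The main ERN1 transcript (NM_001433) held 78.5% ± 4.64 of the gene in Control and 85.8% ± 6.17 with CPI-613 (SD, n = 3; exact permutation p = 0.3). It went from 19.9 ± 0.443 to 70.6 ± 10.8 CPM, a log2 difference of 1.83 (SE 0.19; edgeR, Benjamini-Hochberg adjusted p = 0.0648), and the predicted transcript XM_017024347, which held 20.1% and 13.5% of the gene, from 5.19 ± 1.74 to 10.8 ± 4.55 CPM with overlapping libraries.

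ATF6 was divided among NM_007348 with 55.1% in Control and 56.4% with CPI-613, XM_011509310 with 33.9% and 36.8%, and XM_006711224 with 7.81% and 5.42%. For ATF6B, NM_004381 held 80.3% and 78.1% and NM_001136153 19.1% and 20.6%, and 4 further rows of that gene held up to 58.3 counts together. MBTPS1 was nearly all NM_003791, at 99.0% and 98.3%, and MBTPS2 has the single transcript NM_015884. For each of these transcripts the shares of the 2 groups overlapped. Outside XBP1 the groups were apart in share for 1 scarce transcript, XM_011509309 of ATF6, singled out after its values were seen. It held 3.02%, 1.66% and 2.78% of the gene in Control and 0.529%, 0.593% and 1.57% with CPI-613 (exact permutation p = 0.1), on 6.80 to 28.2 counts per library. How many of all transcripts had groups apart in share was not counted, so this separation has no background beside it.

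Promoter sequences were searched because ATF6 and XBP1s act through known elements. Each of 35116 RefSeq gene starts (GRCh38 patch 14) was taken from 250 bases before to 50 after the start, and both strands were searched. The ER stress response element ERSE, which is CCAAT and CCACG with 9 bases of any kind between them, was found in 26 of them (0.0740%), and XBP1 was the only one of the 6 genes to hold it, at 52 to 34 bases before the start. ERSE-II, which is ATTGG and CCACG around 1 base of any kind (0.0513% of starts), the unfolded protein response element TGACGTGG (0.612%) and the amino acid response element TGATGNAAT (0.888%), which ATF4 binds, were found in none of the 6. The 250 bases before the starts of the 2 genes that rose are shown on the minus strand, XBP1 at chr22:28800570-28800819 with ERSE in capitals and ERN1 at chr17:64130145-64130394 with no match.
XBP1 promoter: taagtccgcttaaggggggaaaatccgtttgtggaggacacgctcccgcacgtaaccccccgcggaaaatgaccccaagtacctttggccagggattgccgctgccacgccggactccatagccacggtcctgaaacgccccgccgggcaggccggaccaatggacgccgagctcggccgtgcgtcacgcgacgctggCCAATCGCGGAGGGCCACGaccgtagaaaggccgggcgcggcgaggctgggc
ERN1 promoter: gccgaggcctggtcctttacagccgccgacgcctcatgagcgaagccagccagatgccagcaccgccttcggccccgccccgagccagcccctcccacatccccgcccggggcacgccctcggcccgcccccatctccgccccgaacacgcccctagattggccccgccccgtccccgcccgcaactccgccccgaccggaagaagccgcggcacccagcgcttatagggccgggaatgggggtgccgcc
The 26 starts with ERSE belong to 25 genes, of which 16 were tested. Their median log2 difference was 0.10, beside 0.02 over all genes, and 1 of the 16, XBP1, was called, where 1.94% of all genes were called higher. All CPI-613 libraries lay above Control in 5 of the 16, beside 11.8% of all genes, and 2 were called higher after GC and length correction, beside 6.65%. Among the chaperones with the element, HSPA5 (BiP) had a log2 difference of 1.01, CANX of 0.14, PDIA6 of 0.05, HSP90B1 of -0.37 and calreticulin (CALR) of -0.11. None of them passed the main edgeR test, and HSPA5 was called by DESeq2 and after GC and length correction.

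Genes around the members were read from lists by arm of the pathway. The list for the IRE1 arm held 17 tested factors, such as the tRNA ligase that joins XBP1 mRNA and the adaptors of IRE1 signalling. Of the 17 edgeR called 0, with a median log2 difference of 0.21. At an unadjusted p under 0.05 there were 3, beside 1823 of all 12671 genes, and DESeq2 called 0. The most abundant over both groups were RACK1, a scaffold protein, at 1040 ± 153 and 1504 ± 467 CPM, and TMBIM6, an ER membrane inhibitor of IRE1, at 728 ± 26.4 and 1043 ± 127 CPM (SD, n = 3). After GC and length correction 2 of the 17 were called higher, beside 6.65% of all genes. Both are also on the list of XBP1s targets below.

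Of 43 tested targets of XBP1s, which make up secretion and ER-associated degradation machinery, 40 had an estimate above 0, beside 6565 of all 12671 genes, and the median was 0.39, beside 0.02 over all genes. A single gene was called higher, beside 1.94% of all genes. That gene was HERPUD1, an ER-associated degradation factor, with 55.6, 58.4 and 46.2 CPM in Control and 118, 136 and 154 CPM under CPI-613. It rose by 1.35 on the log2 scale (SE 0.19; edgeR, Benjamini-Hochberg adjusted p = 0.0159). DESeq2 called 2 of the 43 higher, beside 491 of all 12671 genes. With GC and length correction 13 of the 43 were called higher, HERPUD1 among them, beside 6.65% of all genes. None was lower in either fit. Over the fits with that correction that leave out 1 library, 4 to 25 were called.

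Of 16 tested targets of ATF6 3 were called higher and 0 lower, beside 1.94% and 1.24% of all genes, with a median of 0.38. These were DDIT3, the stress transcription factor CHOP, from 30.7 ± 3.95 to 113 ± 5.74 CPM (SD, n = 3), HERPUD1 and XBP1 itself. All 3 are targets of other arms of the response as well. The lists share these calls, since HERPUD1 was counted among the XBP1s targets and DDIT3 is counted again in the PERK arm. XBP1 is itself a member. After GC and length correction 7 were called higher, beside 6.65% of all genes. DESeq2 called 4 of the 16 higher, beside 491 of all 12671 genes. Of 13 genes that hold ATF6 in the ER or carry it to the Golgi, edgeR called 0. At an unadjusted p under 0.05 there were 2, beside 1823 of all 12671 genes. DESeq2 called 2 of the 13 higher, beside 491 of all genes, and 2 were higher after GC and length correction, beside 6.65%. HSPA5, the chaperone that holds the sensors inactive, measured 1892, 1769 and 1764 CPM in Control and 3969, 4057 and 2929 CPM under CPI-613. All its CPI-613 libraries lay well above Control, and its log2 difference of 1.01 (SE 0.21) came to an adjusted p of 0.0505 by edgeR, just short of the call. After GC and length correction it passed at 1.05 (edgeR, adjusted p = 0.00174), and DESeq2 called it higher (adjusted p = 0.000508). SEC24C, a COPII coat protein of that list, measured 279 ± 16.6 and 322 ± 53.2 CPM.

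Among 11 tested substrates and partners of S1P and S2P, 1 was called higher and 0 lower, with a median of 0.25. Of all genes 1.94% were called higher and 1.24% lower. DESeq2 called 2 of the 11 higher, beside 491 of all 12671 genes, and 3 were called higher after GC and length correction, beside 6.65%. The gene called by edgeR was INSIG1, which retains the SREBP precursors that both proteases cut, and it rose from 23.0 ± 4.33 to 138 ± 27.3 CPM (log2 2.58, SE 0.25; edgeR, Benjamini-Hochberg adjusted p = 0.0072). Of 8 transcripts known to be degraded by IRE1, called RIDD substrates, edgeR called 0, with a median of -0.07. At an unadjusted p under 0.05 there were 2, beside 1823 of all 12671 genes. DESeq2 called 1 higher and 1 lower, beside 491 and 402 of all genes. After GC and length correction 1 was called higher, beside 6.65% of all genes. The most abundant were SPARC, a matrix glycoprotein, at 473 ± 23.5 and 236 ± 75.4 CPM, and HGSNAT, a lysosomal acetyltransferase, at 59.4 ± 4.22 and 92.6 ± 6.41 CPM. They were also the DESeq2 calls, SPARC lower (DESeq2 adjusted p = 0.0106) and HGSNAT higher (0.0178). HGSNAT was the gene called after GC and length correction.

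The third sensor, PERK (EIF2AK3), measured 20.5 ± 5.24 CPM in Control and 24.2 ± 11.4 CPM under CPI-613 with overlapping libraries, a log2 difference of 0.24 (SE 0.42; edgeR, Benjamini-Hochberg adjusted p = 0.851). Its arm held the highest share of calls among these lists, with 6 of 11 tested genes higher, 0 lower and a median of 1.74. Of all genes 1.94% were called higher and 1.24% lower. DESeq2 called 7 of the 11 higher, beside 491 of all 12671 genes. After GC and length correction 7 were higher as well, beside 6.65% of all genes. The largest rises were in CHAC1, a glutathione-degrading enzyme, from 3.41 ± 1.56 to 67.6 ± 27.8 CPM, TRIB3, a pseudokinase, from 36.1 ± 10.7 to 301 ± 99.9 CPM, ASNS, asparagine synthetase, from 62.1 ± 9.43 to 455 ± 15.4 CPM, and ATF3, a stress transcription factor, from 11.2 ± 0.895 to 52.8 ± 13.1 CPM (SD, n = 3; edgeR, Benjamini-Hochberg adjusted p of 0.00387 to 0.00943). ATF4, the factor translated when PERK is active, measured 491 ± 76.8 and 981 ± 196 CPM (log2 1.00; edgeR, Benjamini-Hochberg adjusted p = 0.0679). All its CPI-613 libraries lay above Control. It was called higher by DESeq2 (adjusted p = 0.00278) and after GC and length correction (edgeR, adjusted p = 0.00389). Other kinases also lead to ATF4, so this list does not read PERK alone. No gene of any of these lists was called by edgeR without Control replicate 1 or Control replicate 3, where no gene of the whole table was, and 1, in the PERK arm, without CPI-613 replicate 2.

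**Figure D5:**
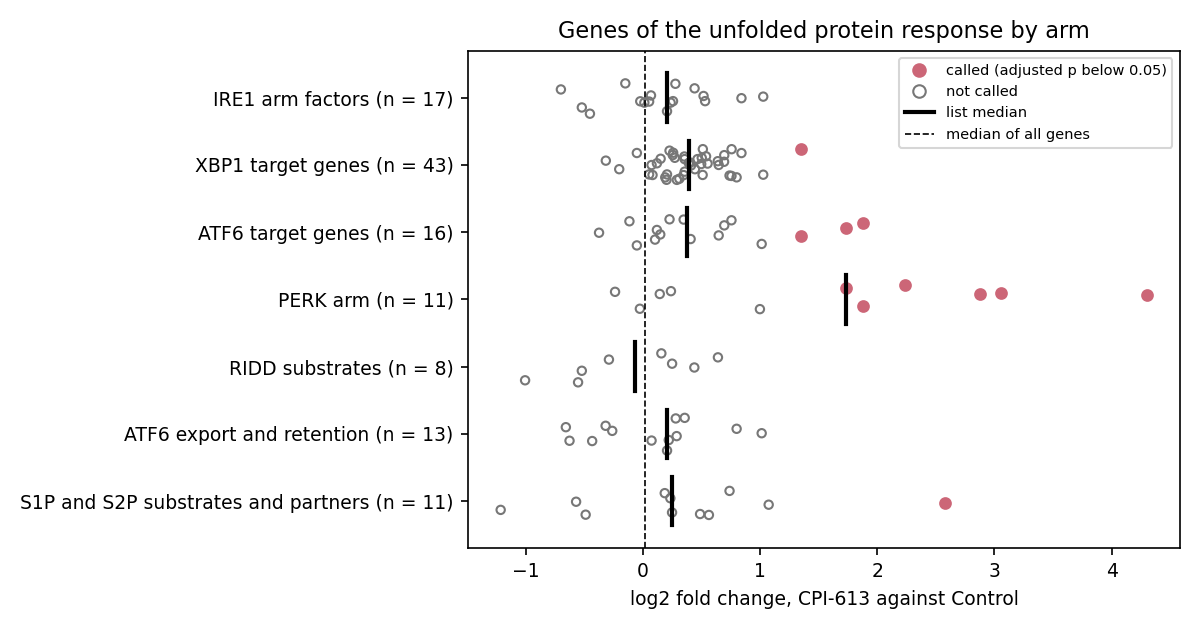
Log2 fold change (CPI-613 against Control) of the tested genes in each pathway list, 1 point per gene, filled where called at an adjusted p below 0.05 by edgeR; thick lines are list medians and the dashed line the median of all genes. The PERK arm has the median farthest right at 1.74, and 40 of 43 XBP1 target genes lie above 0 with 1 called.

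The genes whose profile over the 6 libraries came nearest to that of ERN1 were TRPV3, LMO4, MAP1LC3B, SYT7 and TRAF1, with a root mean square difference in centred log2 CPM of 0.078 to 0.12. TRPV3, a cation channel of keratinocytes, went from 4.18 ± 0.150 to 13.7 ± 0.777 CPM (SD, n = 3), and MAP1LC3B, an autophagosome protein, from 68.1 ± 1.71 to 206 ± 14.7 CPM. For XBP1 they were LAMB3, WARS1, ARHGEF2, SLC6A9 and AKNA, at 0.028 to 0.10. LAMB3, a chain of laminin-332 of the epithelial basement membrane, was the nearest and went from 1710 ± 178 to 5643 ± 883 CPM, in nearly the same proportions between libraries as XBP1. All 12671 tested genes were ranked, over 6 libraries in 2 groups, so the likeness is a description of these libraries.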

How the data were processed

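The authors deposited estimated counts per RefSeq transcript for the 6 libraries and a processed matrix per gene. The unit of the matrix is not named in it. It was taken as FPKM, because for 1652 genes with 1 transcript the deposited value per count followed the inverse of the library total within 0.587%. Build hg38 and the tools STAR 2.5, HTSeq, CASAVA, DESeq2 and edgeR 3.16.5 are listed, without roles, in the submitters' processing notes. Of the sums of the deposited estimated counts per gene, 87.8% were whole within 0.03. In 27 transcripts, none of the 6 genes, a cell holds a date. They were left out, which removed 3 genes.

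Estimated counts were summed per gene, rounded, filtered with filterByExpr (minimum count 10, total 15), TMM-scaled and fitted with the quasi-likelihood functions (glmQLFit, glmQLFTest) of edgeR 4.0.16 in R 4.3.3, 3 CPI-613 against 3 Control libraries, with Benjamini-Hochberg adjustment over 12671 genes at 0.05. The 53 genes without a symbol held 0.0163% of counts. Transcripts were tested the same way, and their usage with diffSpliceDGE. The deposited FPKM with a mean of at least 0.5 were tested with limma 3.58.1 on log2(value + 1). Shares and ratios were compared by exact permutation (scipy 1.17.1). GC content and length came from GENCODE 29 transcripts, for 12605 of the 12671 genes. Alternatives were other scalings and filters, DESeq2 1.42.0, limma-voom, a replicate block, a GC and length correction and leaving out each library. The scripts were tested on simulated data.

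Precision rests on 3 libraries per group with 11531942 to 15486513 counts each. In all, 12293 to 12707 genes had at least 10 counts in a library.

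Named beside the 6 genes are their transcripts with at least 5% of the gene in either group, HSPA5, EIF2AK3, ATF4 and DDIT3, up to 4 called genes per list by size of change or up to 2 by CPM where none was called, and the 5 nearest profiles to ERN1 and to XBP1. The other genes holding ERSE, and CD14, were named after their values were seen. The 6 genes and all lists were chosen with earlier results of these data known. The target and substrate lists were written from general knowledge of the pathway.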

Additional observations from a re-analysis of the deposited data

How the results depend on the processing

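Of the values of the main results under the alternatives, 312 kept their direction and side of the threshold, 12 no longer passed it, 3 newly passed it, 11 changed sign and 22 counts of calls moved by over 1.5 times. The number of genes called, 403, became 893 with DESeq2, 1478 after GC and length correction, 191 with the replicate number as a block, 890 with that block and the correction together, and 0 to 2657 over all fits that leave out 1 library. Scaled by library size only, 229 genes were higher and 259 lower in place of 246 and 157, and the median log2 difference of all genes moved from 0.02 to -0.17. Over the fits without 1 library 0 to 4 of the 6 genes were called, with log2 values of 1.65 to 1.81 for ERN1, 1.56 to 1.87 for XBP1, 0.26 to 1.15 for ATF6, 0.19 to 0.52 for MBTPS1 and -0.84 to 0.18 for MBTPS2. MBTPS2 turned to 0.074 with GC and length correction and to 0.068 with the block added. The spliced XBP1 isoform passed at 2.24 with library size only. In FPKM the ERN1 call ended with the block (limma, 1.33, adjusted p = 0.092), and values without 1 library were 1.23 to 1.47 for ERN1, 1.45 to 1.58 for XBP1 and -0.020 to 0.15 for ATF6B. The log2 ratio of XBP1 to ERN1 differed by -0.17 to 0.14 without 1 library. Deviations of same-numbered libraries from their group means had correlations of 0.46, -0.10 and -0.61 across genes. These deviations also ran along GC content, so they cannot show whether replicate numbers pair the samples. Pairing is not given in the sources used here, and the fits with the block do not decide it. Of 30 other genes named, not counting HSP90B1, CALR, CANX and PDIA6, 3 turned direction. EIF2AK3 ran from -0.062 to 0.58 over the fits without 1 library, SEC24C went to -6.06e-04 with library size only, and KRT17 to -0.035 with upper quartile scaling, -0.16 with library size only, -0.013 with limma-voom, -0.0073 with the block, -0.23 with the correction, -0.18 with block and correction, and ran from -0.49 to 0.44 without 1 library. The fits without 1 library under DESeq2 or the correction, and the share of the 2 main isoforms only, which was 8.65 points apart, were chosen after seeing the data. The depth limits MBTPS2, with 52 to 212 counts, and the minor isoforms.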
